A study of Xenopus laevis with 20 samples.

Results

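The genes described here make, fold and move proteins along the secretory pathway of the frog Xenopus laevis: endoplasmic reticulum (ER) chaperones, disulfide isomerases, the translocon, the signal recognition particle, signal peptidase, vesicle coats and cargo receptors. They were chosen by symbol. The symbol began with sec61, sec22, sec23, sec24, ssr or srp plus a digit, spcs, cop plus a, b, e, g or z, tmed or pdia, or was hsp90b1, hspa5, calr or canx. A gene entered through 1 probe set, that of the highest mean, among probe sets at log2 4 or more on at least 5 of 20 arrays. Of 62 symbols that met the rule, 58 passed this filter and are called members below, of 8397 symbols that passed it in all. The 56 members other than sec24d.L and tmed8.S reached log2 4 on all 20 arrays. The 4 symbols left out were pdia2.L, sec22b.S, sec22c.L and sec61g.S, whose highest values on any array were 1.68, 3.68, 2.81 and 2.15.

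The samples were single animal cap explants, the prospective ectoderm cut from a blastula. When an embryo had 2 cells it received mRNA for Pax3GR (5 explants), Zic1GR (5), Pax3GR and Zic1GR together (Pax3GR/Zic1GR, 5), or the glucocorticoid receptor alone as the control (GR, 5). Pax3GR and Zic1GR are the transcription factors Pax3 and Zic1 in hormone-inducible form, fused to GR. All 4 groups, the control included, were dissected at stage 9 and kept in dexamethasone, the hormone that activates such fusions, for 8 hours. An array is named by its group and replicate number (Pax3GR 1 is replicate 1 of Pax3GR). The labels call the 5 arrays of a group biological replicates, and nothing in them ties a replicate number to a clutch of eggs.

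Proteins bound for the cell surface, for secretion or for the membranes of the pathway are recognised by the signal recognition particle as they leave the ribosome and are threaded into the ER through the Sec61 channel. Signal peptidase removes the signal, and chaperones and disulfide isomerases fold the chain. COPII coats then form the vesicles that leave the ER, COPI coats form those that return from the Golgi, and TMED proteins carry cargo in both. Animal cap ectoderm forms epidermis, including mucus-secreting, multiciliated and ion-transporting cells, and gland cells when it is diverted to other fates. X. laevis carries a pair of copies (homeologs) of many genes, marked .L and .S.

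On each array 18949 to 19239 probe sets reached log2 4, the level used as background, and array medians lay between 6.10 and 6.30. The mean correlation of an array with the other arrays of its group was lowest for Pax3GR 1 (0.88), Pax3GR/Zic1GR 4 (0.92) and Zic1GR 5 (0.93). Calls were made with limma over 20519 probe sets, with a Benjamini-Hochberg adjusted p under 0.05, and "rose" and "fell" are kept for such calls. Differences are on the log2 scale of array intensity, and levels of different genes cannot be set against each other on that scale.

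Secretory pathway genes were lower in Pax3GR explants than in GR explants through most of the pathway. Of the 58 members, 39 fell and 1 rose, while 23.0% of all probe sets tested fell and 27.3% rose in the same comparison. The median member differed by -0.48 and the median probe set by 0.10. The size of the change was mostly under 2-fold: 6 members fell by 2-fold or more, against 16.4% of all probe sets, the median size over the members was 0.48, and over all probe sets it was 0.59. In 38 members all 5 Pax3GR arrays lay below all 5 GR arrays, against 17.6% of all probe sets. With 1 array left out at a time, 34 to 41 members fell. Without Pax3GR 1 and Zic1GR 5, left out together after the data were seen, 45 members fell. Each of these arrays was the nearest of its group to GR in mean level over the members.

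With Zic1GR, 14 members fell and 4 rose, against 22.8% and 28.6% of all probe sets, so that the share of members that fell was close to the share of all probe sets. The median member differed by -0.19 and the median probe set by 0.09. The 4 that rose were sec22a.S, ssr4.S, copg2.S and tmed8.S, and without any 1 of Zic1GR 2, 3 and 4 or GR 2 only 2 of them were called. With Pax3GR/Zic1GR, 24 members fell and 1 rose, against 20.3% and 24.6% of all probe sets, with a median of -0.28 over members and 0.08 over all probe sets. Without Pax3GR/Zic1GR 4, 17 fell. Without Pax3GR 1 and Zic1GR 5, 19 members fell with Zic1GR and 25 with Pax3GR/Zic1GR. With 1 array left out at a time, 10 to 18 fell with Zic1GR and 17 to 28 with Pax3GR/Zic1GR. The 5 arrays of the injected group all lay below the 5 GR arrays in 15 members with Zic1GR and in 21 with Pax3GR/Zic1GR, against 19.1% and 17.4% of all probe sets. The comparisons with GR share the same 5 GR arrays.

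The mean log2 level over the 58 members showed the same order array by array. It lay between 11.92 and 12.16 (median 12.04) in Pax3GR explants, between 12.30 and 12.49 (12.39) in Zic1GR explants and between 12.08 and 12.41 (12.27) in Pax3GR/Zic1GR explants, against 12.49 to 12.61 (12.53) in GR explants. No array of an injected group reached the lowest GR array, and the Pax3GR arrays lay below the Zic1GR arrays, while Pax3GR/Zic1GR overlapped with both. The Zic1GR array nearest to the GR group was Zic1GR 5, and the Pax3GR array nearest was Pax3GR 1. Pax3GR/Zic1GR 4 was the lowest of its group, the farthest from GR.

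**Figure D1:**
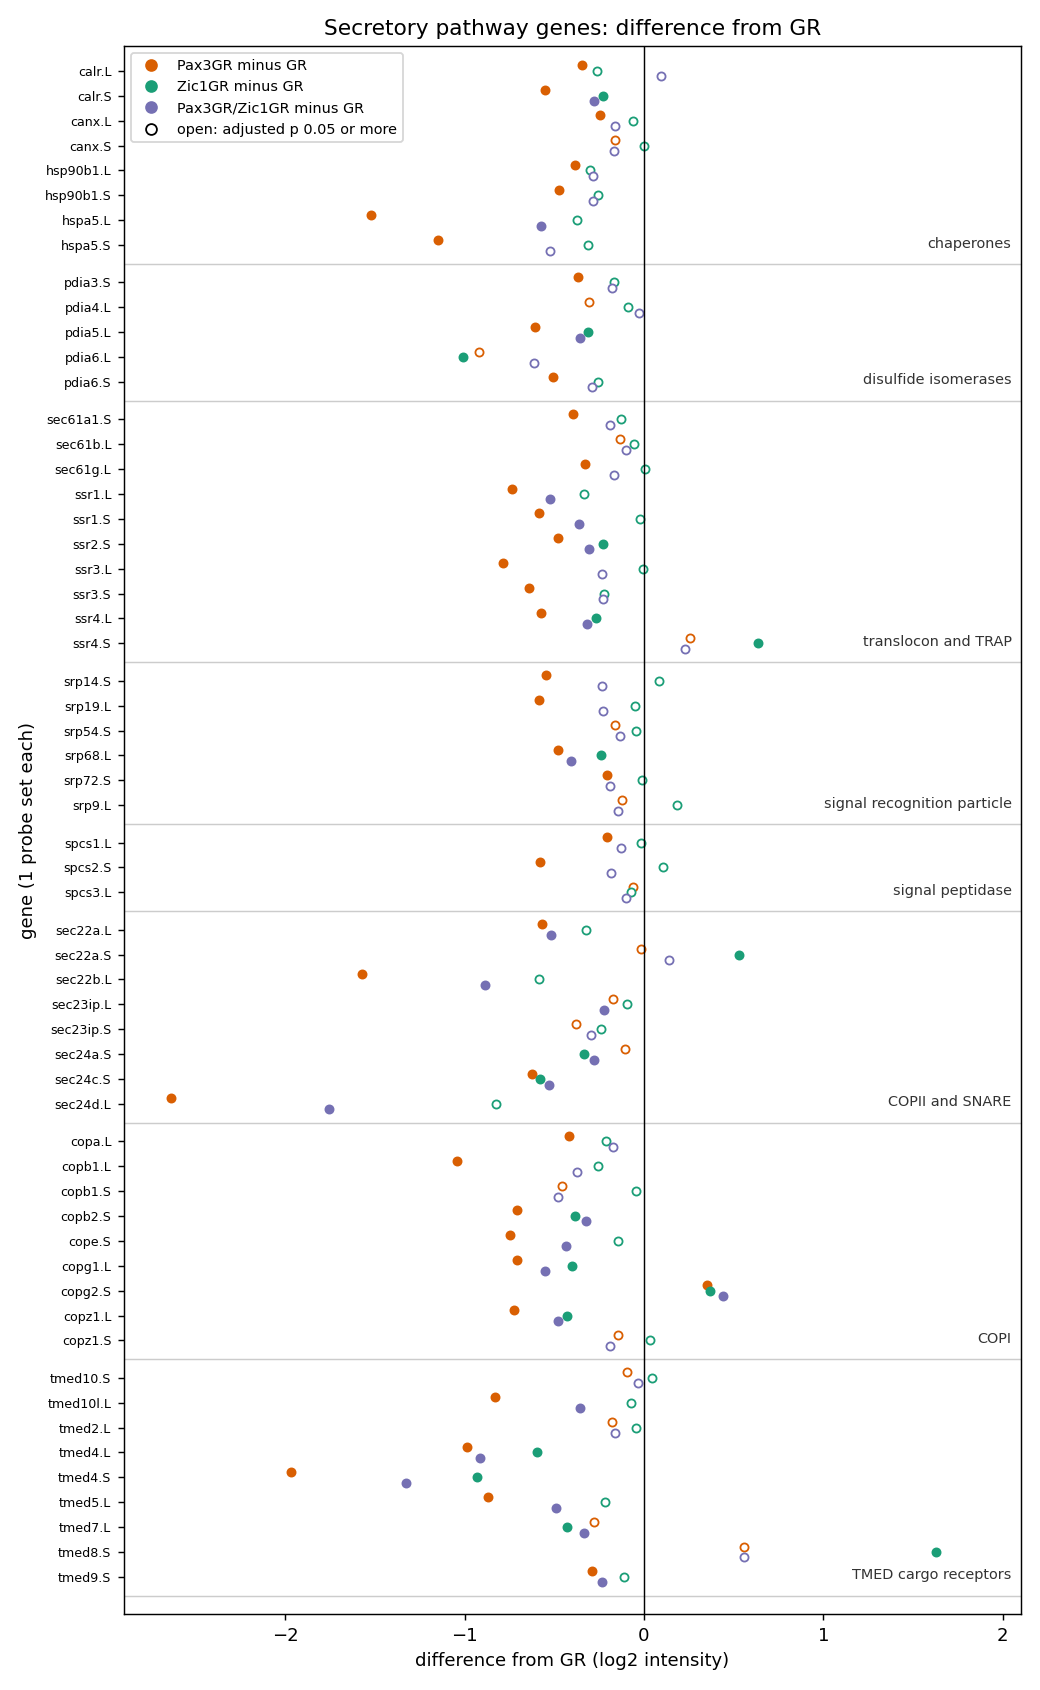
Difference from GR (log2 intensity, horizontal axis) of each of the 58 genes (vertical axis, ordered by role) with Pax3GR, Zic1GR and Pax3GR/Zic1GR. Filled dots passed an adjusted p of 0.05 and open dots did not; 39 of the Pax3GR dots are filled to the left of 0 and 1 to the right.

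The explants differed in cell types as well. Counts for the cell type lists below stand beside the shares of all probe sets. Of all probe sets, 23.0%, 22.8% and 20.3% fell and 27.3%, 28.6% and 24.6% rose with Pax3GR, Zic1GR and Pax3GR/Zic1GR. Over 6 genes of mucus-secreting (goblet) cells, the mean log2 level per array was 7.51 to 9.19 with Pax3GR, 8.53 to 9.85 with Zic1GR and 6.28 to 9.01 with Pax3GR/Zic1GR, against 11.16 to 11.91 with GR, and 5, 3 and 5 of the 6 fell. Of these genes foxa1.L, a regulator of secretory cells, lay below log2 4 on every array of the 3 injected groups. It passed the filter only through the GR arrays, so that the filter favoured a fall for it. Genes of multiciliated cells ranged over 4.22 to 10.22 with Pax3GR, 4.87 to 8.70 with Zic1GR and 4.66 to 8.75 with Pax3GR/Zic1GR, against 10.74 to 11.81 with GR, and 11, 10 and 8 of 11 fell. Ionocyte genes lay at 3.68 to 6.58, 3.92 to 7.91 and 3.92 to 6.46 in the 3 injected groups in the same order, against 10.52 to 11.47 with GR, and 7, 8 and 7 of 8 fell. Of these, slc26a4.3.L and slc26a4.3.S lay below log2 4 on every injected array and passed the filter only through GR arrays. Pax3GR 1, Zic1GR 5 and Pax3GR/Zic1GR 4 set several ends of these ranges. Without them, the goblet cell genes lay at 7.51 to 9.15, 8.53 to 9.74 and 8.05 to 9.01 in the injected groups, those of multiciliated cells at 4.22 to 6.70, 4.87 to 8.70 and 6.84 to 8.75, and those of ionocytes at 3.68 to 3.85, 3.92 to 6.64 and 3.98 to 6.46.

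Gland genes moved the other way in some groups. The 4 hatching gland genes tested, a gland that secretes the enzymes that dissolve the egg envelope, averaged 14.01 to 14.18 per array with Pax3GR, 6.75 to 8.45 with Zic1GR and 13.51 to 13.81 with Pax3GR/Zic1GR, against 5.05 to 5.13 with GR. Of these 4, 3 rose with Pax3GR and 3 with Pax3GR/Zic1GR, and 2 rose and 1 fell with Zic1GR. They include pax3.S, a gene of the injected factor Pax3, whose level in groups given Pax3GR cannot be read as a gland marker. It, astl3a.1.L and xa-1.L lay below log2 4 on every GR array and passed the filter only through injected arrays. For these genes the filter favoured a rise over GR. The 8 cement gland genes averaged 8.46 to 9.46, 12.92 to 13.29 and 7.32 to 10.12 in the 3 injected groups, against 10.71 to 11.36 with GR. With Pax3GR 4 of them fell and 1 rose, with Zic1GR 4 rose and none fell, and with Pax3GR/Zic1GR 4 fell and 1 rose. The cement gland list and the goblet cell list both name agr2 and muc2, so they are not independent. Among the cement gland genes, pitx1.L lay below log2 4 on all arrays but those of Zic1GR, through which alone it passed the filter. Epidermal genes averaged 9.89 to 11.38, 10.74 to 11.37 and 11.14 to 12.12, against 12.05 to 12.38, and of 19 tested 14, 7 and 7 fell and 1, 3 and 4 rose. The shares that rose, 5.3%, 15.8% and 21.1%, lay below those of all probe sets. On every Pax3GR array krt12.2.L, krt12.2.S, tp63.L and tp63.S lay below log2 4, as did krt12.2.S and tp63.L on every Zic1GR array. Those of them that passed the filter did so through other groups, so that it favoured a fall for them. Without the same 3 arrays the epidermal genes averaged 9.89 to 10.94, 10.74 to 11.33 and 11.38 to 12.12 in the injected groups, and the lowest Pax3GR/Zic1GR array for the cement gland genes was at 8.79.

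Genes of other tissues moved too. The 8 neural plate genes averaged 8.47 to 9.54 per array with Pax3GR, 8.38 to 9.24 with Zic1GR and 5.91 to 8.18 with Pax3GR/Zic1GR, against 5.68 to 6.37 with GR. Among them 6 rose with Pax3GR, 6 with Zic1GR and 3 with Pax3GR/Zic1GR, where 2 fell, with medians of 1.84, 2.26 and 0.15. The genes nes.S and nrp1.L lay below log2 4 on every GR array and passed the filter only through injected arrays. Of the 8 muscle and mesoderm markers measured, all lay below log2 4 on every GR array, and of the 4 that passed the filter 3 rose with Pax3GR, 2 with Zic1GR and 3 with Pax3GR/Zic1GR. They could pass it only through injected arrays, so that the filter favoured a rise over GR. These 4 averaged 4.71 to 5.93, 3.74 to 4.39 and 2.94 to 5.703 in the injected groups, against 2.28 to 2.70 with GR. Of 4 notochord genes 3, 0 and 2 rose, with array means of 6.17 to 6.92, 5.30 to 5.95 and 6.31 to 7.04, against 4.47 to 5.697 with GR. Here col2a1.L and tbxt.S lay below log2 4 on every GR array and likewise passed only through injected arrays. Of 10 endoderm markers measured 5 lay below log2 4 on every GR array, and the 4 that passed the filter averaged 7.08 to 7.46, 7.51 to 9.11 and 6.75 to 8.26 in the injected groups, against 8.76 to 9.85 with GR. Among these endoderm genes 3 fell with Pax3GR, 2 with Zic1GR and 2 with Pax3GR/Zic1GR, and 1 rose with Zic1GR. The part of these shifts in cell type in the secretory results was not tested. In RNA of whole explants, fewer cells of a type and less RNA per cell cannot be told apart.

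**Figure D2:**
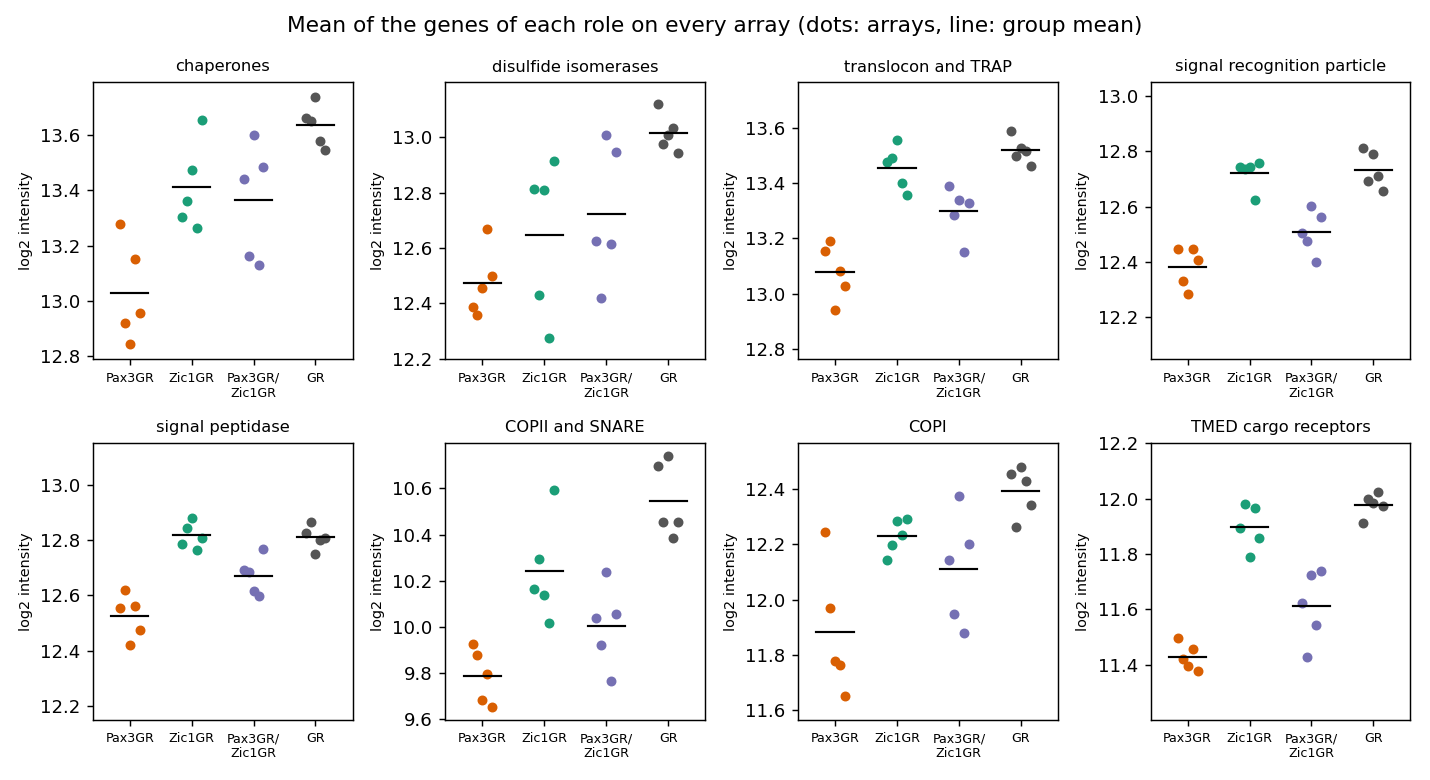
Mean log2 intensity of the genes of each role on every array (dots) with the mean of each group (line), in 8 panels with their own vertical axes. In every panel the 5 Pax3GR arrays lie below the 5 GR arrays, and in every panel but that of the disulfide isomerases the Zic1GR arrays overlap with the GR arrays.

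Of the 8 chaperone members, 7 fell with Pax3GR, 1 with Zic1GR and 2 with Pax3GR/Zic1GR, against 23.0%, 22.8% and 20.3% of all probe sets. The largest falls were those of hspa5, which encodes BiP, the Hsp70 of the ER lumen that binds unfolded chains and holds the stress sensors inactive. hspa5.L lay at 11.40, 10.56, 10.48, 11.24 and 10.73 in Pax3GR explants and at 11.92, 11.90, 12.06, 11.82 and 12.45 in Zic1GR explants. It lay at 11.93, 11.32, 12.30, 11.34 and 12.26 in Pax3GR/Zic1GR explants, against 12.39, 12.39, 12.66, 12.33 and 12.25 in GR explants. All Pax3GR values lay below all Zic1GR and all GR values, and the Pax3GR/Zic1GR arrays split into 3 at 11.93 or above and 2 at 11.34 or below. hspa5.L differed from GR by -1.52 (SE 0.22, adjusted p = 1.9e-05) with Pax3GR, -0.37 (SE 0.22, adjusted p = 0.16) with Zic1GR and -0.57 (SE 0.22, adjusted p = 0.0404) with Pax3GR/Zic1GR. The last of these was not called without any 1 of Pax3GR/Zic1GR 1, 2 and 4 or GR 1, 2, 3 and 4 (adjusted p 0.0522 to 0.116). The probe set used carries the array's mark for possible cross-hybridisation, and the other probe set of hspa5.L differed by -1.91 with Pax3GR.

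In Pax3GR explants hspa5.S had 12.17, 11.24, 11.002, 11.84 and 11.49, and in Zic1GR explants it had 12.24, 12.38, 12.57, 12.07 and 12.68. Pax3GR/Zic1GR explants gave 12.49, 11.69, 12.73, 11.60 and 12.36 for hspa5.S, against 12.77, 12.64, 13.02, 12.60 and 12.48 in GR explants. Here too the Pax3GR arrays lay below the GR arrays without overlap, and Pax3GR 1 was the highest of its group. hspa5.S differed from GR by -1.15 (SE 0.24, adjusted p = 0.00056) with Pax3GR, -0.31 (SE 0.24, adjusted p = 0.279) with Zic1GR and -0.53 (SE 0.24, adjusted p = 0.0777) with Pax3GR/Zic1GR. Without Pax3GR/Zic1GR 3, the last difference was called (adjusted p = 0.0298).

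Hsp90b1 (Grp94), the Hsp90 of the ER lumen, was among the members with the highest intensity and fell by less. For hsp90b1.L the Pax3GR arrays gave 13.52, 13.23, 13.46, 13.74 and 13.72 and the Zic1GR arrays 13.49, 13.56, 13.58, 13.41 and 14.05. The Pax3GR/Zic1GR arrays gave 13.54, 13.37, 14.10, 13.44 and 13.73, and the GR arrays 13.99, 13.86, 14.05, 13.88 and 13.81. The Pax3GR arrays lay just below the GR arrays, and Zic1GR 5 and Pax3GR/Zic1GR 3 lay within or above the GR range while the other arrays of those groups lay below it. hsp90b1.L differed from GR by -0.39 (SE 0.15, adjusted p = 0.0368) with Pax3GR, -0.30 (SE 0.15, adjusted p = 0.0976) with Zic1GR and -0.28 (SE 0.15, adjusted p = 0.128) with Pax3GR/Zic1GR. The Pax3GR call was lost without any 1 of Pax3GR 1, 2 and 3 or GR 1, 2, 3 and 4 (adjusted p 0.0505 to 0.105) and after quantile normalization (0.0561). The Zic1GR difference was called without Zic1GR 5 (adjusted p = 0.0207), and that of Pax3GR/Zic1GR without Pax3GR/Zic1GR 3 (0.0243). Its homeolog hsp90b1.S averaged 13.36 ± 0.29 in Pax3GR, 13.58 ± 0.21 in Zic1GR and 13.55 ± 0.21 in Pax3GR/Zic1GR explants, against 13.83 ± 0.09 in GR explants (SD, n = 5 each). It fell with Pax3GR, with a difference of -0.48 (SE 0.14, adjusted p = 0.00912).

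Calreticulin and calnexin are the lectin chaperones that hold glycoproteins until they are folded, the first in the lumen and the second in the membrane. Log2 levels of calr.S were 14.11, 14.05, 13.78, 13.92 and 13.82 with Pax3GR and 14.05, 14.20, 14.35, 14.28 and 14.43 with Zic1GR. They were 14.26, 14.18, 14.31, 14.09 and 14.21 with Pax3GR/Zic1GR, against 14.52, 14.58, 14.48, 14.41 and 14.46 with GR. Every Pax3GR and Pax3GR/Zic1GR array lay below the GR arrays, and of the Zic1GR arrays Zic1GR 5 overlapped with them. calr.S differed from GR by -0.55 (SE 0.09, adjusted p = 7.03e-05) with Pax3GR, -0.23 (SE 0.09, adjusted p = 0.0446) with Zic1GR and -0.28 (SE 0.09, adjusted p = 0.0188) with Pax3GR/Zic1GR. The Pax3GR/Zic1GR call was lost without Pax3GR/Zic1GR 4 (adjusted p = 0.0506). The Zic1GR call was lost without any 1 of 11 arrays (0.0503 to 0.132), namely Pax3GR 4, Zic1GR 1, 2 and 4, Pax3GR/Zic1GR 1, 2 and 5 and GR 1, 2, 3 and 5, and with replicate number as a block (0.0751).

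calr.L measured 14.21, 13.97, 13.51, 13.57 and 13.37 in Pax3GR explants, and 13.58, 13.78, 13.94, 13.67 and 14.06 in Zic1GR explants. Explants with both factors had 14.23, 14.06, 14.31, 14.03 and 14.21 for calr.L, and GR explants 14.08, 14.07, 14.15, 14.02 and 14.04. Pax3GR 1 lay above the GR range and Pax3GR 2 just below it, while the other 3 Pax3GR arrays lay below both. calr.L differed from GR by -0.35 (SE 0.14, adjusted p = 0.0467) with Pax3GR, -0.26 (SE 0.14, adjusted p = 0.121) with Zic1GR and 0.10 (SE 0.14, adjusted p = 0.594) with Pax3GR/Zic1GR. The Pax3GR call was lost without any array other than Pax3GR 1 and 2, Zic1GR 1 and 5 and Pax3GR/Zic1GR 3 (adjusted p 0.0506 to 0.137), with replicate number as a block (0.0685), after quantile normalization (0.0568) and with only the 2 groups in the fit (0.0969). The Zic1GR difference was called without Pax3GR 1 and Zic1GR 5 (0.0224). canx.L averaged 13.80 ± 0.18, 13.98 ± 0.08 and 13.88 ± 0.10 in Pax3GR, Zic1GR and Pax3GR/Zic1GR explants, against 14.04 ± 0.04 in GR explants. It fell with Pax3GR, with a difference of -0.24 (SE 0.09, adjusted p = 0.0287), a call lost without any 1 of Pax3GR 3, 4 and 5 or GR 2 and 5 (0.0528 to 0.0748). The dimmer probe set of canx.L was lower in all 3 comparisons, by -0.55 (adjusted p = 0.000193), -0.25 (adjusted p = 0.04496) and -0.35 (adjusted p = 0.00889). canx.S was not called in any of the 3 comparisons, with differences of -0.16 (adjusted p = 0.115), -0.00 (adjusted p = 0.998) and -0.16 (adjusted p = 0.12) in the same order. Its Pax3GR arrays all lay below the GR arrays. With trend and robust settings in limma, canx.S was called lower with Pax3GR (adjusted p = 0.0399) and with Pax3GR/Zic1GR (0.0424).

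**Figure D3:**
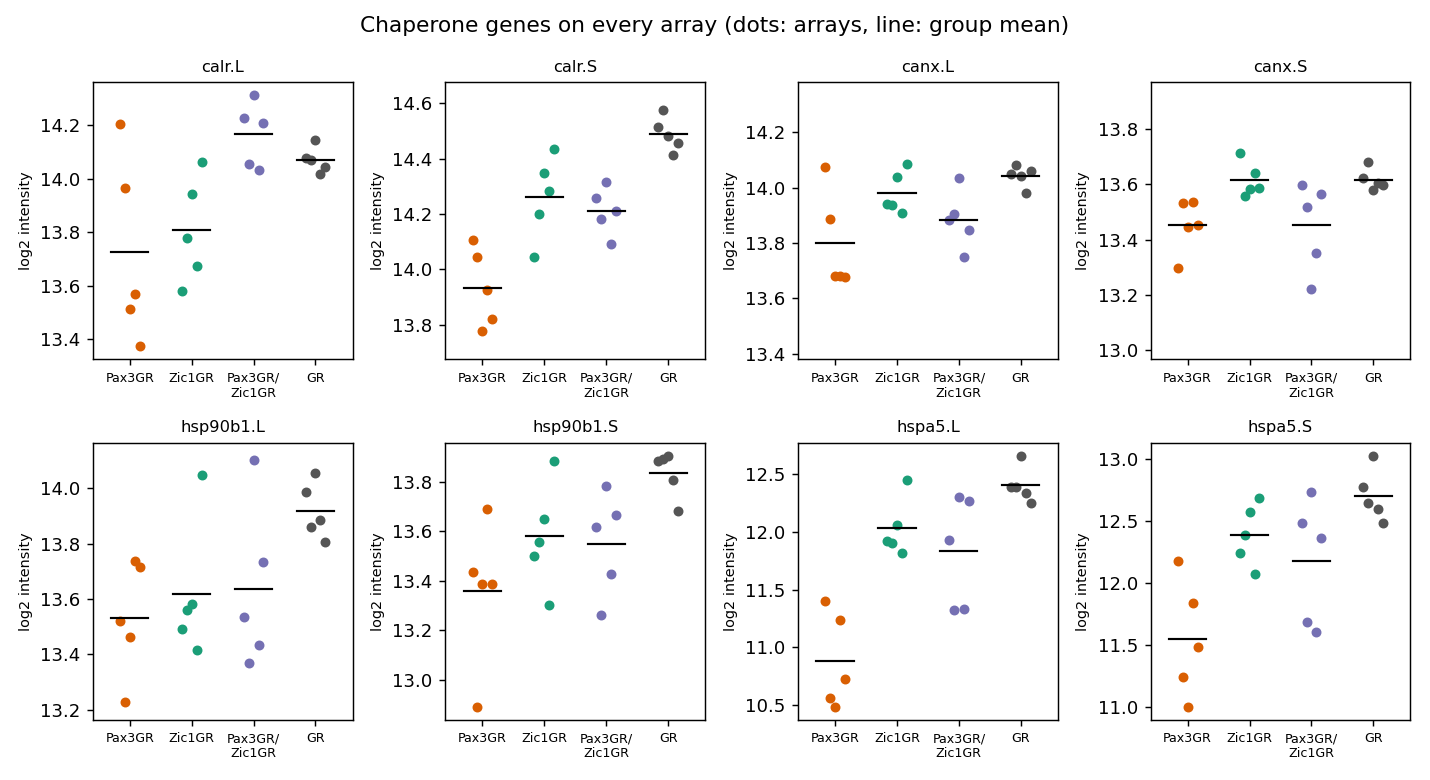
Log2 intensity of the 8 chaperone genes on every array (dots) with group means (lines), in panels with their own vertical axes. The gap between the Pax3GR and GR means is 1.52 for hspa5.L and 1.15 for hspa5.S and at most 0.55 for the other 6 genes. The array Pax3GR 1 is the highest of its group for hspa5.L, hspa5.S, calr.S, calr.L and canx.L, but not for hsp90b1.L.

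Disulfide isomerases form and shuffle the disulfide bonds of chains in the ER lumen. Of 5 members, 3 fell with Pax3GR, 2 with Zic1GR and 1 with Pax3GR/Zic1GR, against 23.0%, 22.8% and 20.3% of all probe sets. The last count was near that share. pdia5.L lay at 11.55, 11.49, 11.77, 11.83 and 11.79 in Pax3GR explants and at 11.83, 11.92, 11.94, 12.06 and 12.17 in Zic1GR explants. It lay at 11.82, 11.73, 12.04, 11.88 and 12.22 in Pax3GR/Zic1GR explants, against 12.36, 12.23, 12.22, 12.38 and 12.28 in GR explants. The Pax3GR and Zic1GR arrays all lay below the GR arrays, and Pax3GR/Zic1GR 5 touched the lower end of them. pdia5.L differed from GR by -0.61 (SE 0.11, adjusted p = 0.000122) with Pax3GR, -0.31 (SE 0.11, adjusted p = 0.0197) with Zic1GR and -0.35 (SE 0.11, adjusted p = 0.0109) with Pax3GR/Zic1GR. Without Zic1GR 1 the Zic1GR call was lost (adjusted p = 0.0553).

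In Pax3GR explants pdia6.L had 11.84, 11.86, 11.72, 12.4004 and 12.06, and in Zic1GR explants it had 12.94, 10.86, 12.54, 10.31 and 12.78. Pax3GR/Zic1GR explants gave 12.05, 11.59, 12.90, 12.16 and 12.71 for pdia6.L, against 12.95, 12.92, 12.93, 12.95 and 12.73 in GR explants. The Zic1GR arrays split into 3 at 12.54 or above and 2 (Zic1GR 2 and 4) at 10.86 or below, while the GR arrays lay close together. pdia6.L differed from GR by -0.92 (SE 0.41, adjusted p = 0.0716) with Pax3GR, -1.01 (SE 0.41, adjusted p = 0.0484) with Zic1GR and -0.61 (SE 0.41, adjusted p = 0.237) with Pax3GR/Zic1GR. The Zic1GR call rested on those 2 arrays and was lost without any array other than Zic1GR 1, 3 and 5 and Pax3GR/Zic1GR 2 and 3 (adjusted p 0.0526 to 0.153). Its homeolog pdia6.S fell with Pax3GR, with a difference of -0.51 (SE 0.13, adjusted p = 0.00439). The members pdia3.S and pdia4.L were among the brightest. pdia3.S fell with Pax3GR, with a difference of -0.37 (adjusted p = 0.00714). It differed by -0.17 (adjusted p = 0.193) with Zic1GR and -0.18 (adjusted p = 0.183) with Pax3GR/Zic1GR. pdia4.L differed by -0.31 (adjusted p = 0.0559) with Pax3GR, which passed the threshold without Pax3GR 1 or without Zic1GR 5 (0.0204 and 0.0297).

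The translocon consists of the Sec61 channel and the attached translocon-associated protein complex (TRAP), whose subunits are encoded by ssr genes. Of 10 members, 8 fell with Pax3GR, 2 fell and 1 rose with Zic1GR, and 4 fell with Pax3GR/Zic1GR. Among all probe sets 23.0%, 22.8% and 20.3% fell in the same order, so that the Zic1GR falls were near the share of all probe sets. For ssr3.L the Pax3GR arrays gave 11.89, 12.41, 11.91, 12.25 and 12.14 and the Zic1GR arrays 12.78, 13.13, 13.07, 12.81 and 12.71. The Pax3GR/Zic1GR arrays gave 12.77, 12.77, 12.58, 12.45 and 12.78, and the GR arrays 12.86, 12.78, 12.95, 13.02 and 12.91. The Pax3GR arrays lay apart below all others, and the other 3 groups overlapped. ssr3.L differed from GR by -0.79 (SE 0.12, adjusted p = 2.94e-05) with Pax3GR, -0.00 (SE 0.12, adjusted p = 0.984) with Zic1GR and -0.23 (SE 0.12, adjusted p = 0.115) with Pax3GR/Zic1GR. ssr1.L averaged 12.74 ± 0.06 in Pax3GR, 13.14 ± 0.29 in Zic1GR and 12.95 ± 0.20 in Pax3GR/Zic1GR explants, against 13.48 ± 0.23 in GR explants. It fell with Pax3GR, with a difference of -0.73 (SE 0.14, adjusted p = 0.000314) and with Pax3GR/Zic1GR, with one of -0.52 (SE 0.14, adjusted p = 0.00597).

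ssr1.S fell with Pax3GR, with a difference of -0.59 (adjusted p = 0.00182). With Pax3GR/Zic1GR it also fell, with a difference of -0.36 (adjusted p = 0.0423). That call was lost without any 1 of Zic1GR 2, Pax3GR/Zic1GR 2, 4 and 5 and GR 1 to 4 (0.05003 to 0.128). The 2 that fell with Zic1GR were ssr4.L, with a difference of -0.27 (SE 0.08, adjusted p = 0.0125), and ssr2.S, with one of -0.23 (SE 0.09, adjusted p = 0.0393). Both also fell with Pax3GR and with Pax3GR/Zic1GR, on the probe sets used. The other probe set of ssr2.S was not called and had positive differences in all 3 comparisons. These were 0.02 (adjusted p = 0.899) with Pax3GR, 0.21 (adjusted p = 0.0565) with Zic1GR and 0.19 (adjusted p = 0.0974) with Pax3GR/Zic1GR. The Zic1GR call of ssr2.S was lost without any 1 of Zic1GR 1, 3 and 4 or GR 2, 3 and 4 (0.0621 to 0.105) and with a replicate block (0.0604). Among the Sec61 subunits, sec61a1.S and sec61g.L fell with Pax3GR, by -0.40 (adjusted p = 0.000725) and -0.33 (adjusted p = 0.00561). Neither was called with Zic1GR or Pax3GR/Zic1GR. The remaining Sec61 gene, sec61b.L, was the brightest member not called in any comparison with GR. It lay at 14.23 ± 0.04, 14.31 ± 0.08 and 14.26 ± 0.05 in Pax3GR, Zic1GR and Pax3GR/Zic1GR explants, against 14.36 ± 0.07 in GR explants. Its Pax3GR and Pax3GR/Zic1GR arrays nevertheless all lay below the GR arrays. The Pax3GR difference of sec61b.L was called without a filter (adjusted p = 0.0172) and with trend and robust settings in limma (0.0113).

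The homeologs of ssr4 were called in opposite directions with Zic1GR. Log2 levels of ssr4.S were 12.15, 12.52, 11.67, 11.78 and 12.15 with Pax3GR and 12.69, 12.66, 12.66, 12.63 and 11.50 with Zic1GR. They were 12.50, 12.26, 12.19, 11.65 and 11.53 with Pax3GR/Zic1GR, against 11.68, 11.76, 12.09, 11.73 and 11.72 with GR. Zic1GR 5 was the lowest of the 20 arrays, and the other 4 Zic1GR arrays lay above the GR range. ssr4.S differed from GR by 0.26 (SE 0.24, adjusted p = 0.388) with Pax3GR, 0.63 (SE 0.24, adjusted p = 0.0333) with Zic1GR and 0.23 (SE 0.24, adjusted p = 0.45) with Pax3GR/Zic1GR. The Zic1GR call was lost without any 1 of Zic1GR 1 to 4 or GR 1, 2, 4 and 5 (adjusted p 0.0568 to 0.0783). It depended on the probe set: with the probe set of the highest SD the Zic1GR difference was -0.61 (adjusted p = 0.101). The remaining probe set of ssr4.S was called lower with Zic1GR, at -0.63 (adjusted p = 0.0445). Both of these probe sets were lower with Pax3GR, by -1.55 and -1.35.

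The signal recognition particle is an RNA with 6 proteins measured here by 1 gene each. Of these 6 members, 4 fell with Pax3GR, 1 with Zic1GR and 1 with Pax3GR/Zic1GR, against 23.0%, 22.8% and 20.3% of all probe sets. The Zic1GR and Pax3GR/Zic1GR counts were near those shares. srp14.S measured 11.64, 11.43, 11.32, 11.55 and 11.68 in Pax3GR explants, and 12.25, 12.32, 12.13, 12.02 and 12.05 in Zic1GR explants. Explants with both factors had 11.65, 11.69, 12.03, 11.93 and 11.89 for srp14.S, and GR explants 12.12, 11.999, 12.15, 12.10 and 11.98. The Pax3GR arrays formed the lowest group without overlap with Zic1GR or GR. srp14.S differed from GR by -0.55 (SE 0.10, adjusted p = 0.000184) with Pax3GR, 0.08 (SE 0.10, adjusted p = 0.504) with Zic1GR and -0.23 (SE 0.10, adjusted p = 0.0647) with Pax3GR/Zic1GR. The gene encodes a partner of Srp9 in the part of the particle that slows translation. srp19.L, for an assembly subunit, averaged 12.75 ± 0.11, 13.29 ± 0.20 and 13.11 ± 0.16 in the injected groups in the same order as above, against 13.34 ± 0.17 with GR, and fell with Pax3GR, with a difference of -0.59 (SE 0.11, adjusted p = 0.000353).

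srp68.L lay at 12.73, 12.67, 12.77, 12.90 and 12.77 in Pax3GR explants and at 13.05, 13.01, 13.10, 12.92 and 12.98 in Zic1GR explants. It lay at 12.85, 12.72, 12.95, 12.76 and 12.94 in Pax3GR/Zic1GR explants, against 13.22, 13.27, 13.46, 13.23 and 13.06 in GR explants. All Pax3GR and all Pax3GR/Zic1GR values lay below the GR values, and Zic1GR overlapped with GR through Zic1GR 3. srp68.L differed from GR by -0.48 (SE 0.09, adjusted p = 0.000157) with Pax3GR, -0.24 (SE 0.09, adjusted p = 0.0274) with Zic1GR and -0.41 (SE 0.09, adjusted p = 0.000939) with Pax3GR/Zic1GR. Its product binds the particle's RNA together with Srp72. The Zic1GR call was lost without Zic1GR 4, GR 2 or GR 3 (adjusted p 0.0519 to 0.0799). It was made on 1 of the 3 probe sets of srp68.L, and the others differed by -0.09 (adjusted p = 0.697) and -0.06 (adjusted p = 0.477) with Zic1GR. srp54.S, for the subunit that binds the signal sequence, differed by -0.16 (adjusted p = 0.104) with Pax3GR, which passed the threshold without Pax3GR 1 (adjusted p = 0.0267).

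Signal peptidase was represented by 3 accessory subunits, of which 2 fell with Pax3GR and none was called with Zic1GR or Pax3GR/Zic1GR. Among all probe sets 23.0%, 22.8% and 20.3% fell with Pax3GR, Zic1GR and Pax3GR/Zic1GR. In Pax3GR explants spcs2.S had 11.16, 11.28, 10.89, 11.20 and 10.95, and in Zic1GR explants it had 11.68, 11.81, 11.87, 11.77 and 11.81. Pax3GR/Zic1GR explants gave 11.53, 11.56, 11.49, 11.27 and 11.61 for spcs2.S, against 11.65, 11.73, 11.71, 11.65 and 11.64 in GR explants. The Pax3GR arrays lay below all others except Pax3GR/Zic1GR 4, and the Zic1GR arrays overlapped with the GR arrays or lay above them. spcs2.S differed from GR by -0.58 (SE 0.09, adjusted p = 4.05e-05) with Pax3GR, 0.11 (SE 0.09, adjusted p = 0.326) with Zic1GR and -0.18 (SE 0.09, adjusted p = 0.105) with Pax3GR/Zic1GR. spcs1.L fell with Pax3GR, with a difference of -0.21 (SE 0.08, adjusted p = 0.0366), a call lost without any 1 of Pax3GR 1, 3, 4 and 5 or GR 1, 2, 4 and 5 (0.0533 to 0.0817) and with a replicate block (0.0586). spcs3.L was at 13.67 ± 0.05, 13.66 ± 0.08 and 13.63 ± 0.06 in the injected groups, against 13.73 ± 0.05 with GR, and was not called.

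Among 8 members of the ER exit step, 4 fell with Pax3GR, 2 fell and 1 rose with Zic1GR, and 6 fell with Pax3GR/Zic1GR. The shares of all probe sets that fell were 23.0%, 22.8% and 20.3%, and the Zic1GR falls were near theirs. The 8 members comprise the cargo-binding COPII subunits of the sec24 family, the SNAREs of the sec22 family and sec23ip. The rule takes sec23ip by its prefix, and its product binds the coat subunit Sec23 without being part of the inner coat. For sec22b.L the Pax3GR arrays gave 11.50, 10.60, 9.93, 10.55 and 9.88 and the Zic1GR arrays 11.27, 11.40, 11.72, 11.26 and 11.76. The Pax3GR/Zic1GR arrays gave 11.50, 10.87, 11.64, 10.47 and 11.43, and the GR arrays 12.08, 11.94, 12.36, 11.99 and 11.97. Every injected array lay below every GR array, and Pax3GR 1 was the highest of the Pax3GR arrays. sec22b.L differed from GR by -1.57 (SE 0.27, adjusted p = 0.000113) with Pax3GR, -0.59 (SE 0.27, adjusted p = 0.0773) with Zic1GR and -0.88 (SE 0.27, adjusted p = 0.0127) with Pax3GR/Zic1GR. Sec22b is the SNARE of vesicles that shuttle between the ER and the Golgi. Its homeolog sec22b.S did not pass the filter.

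Log2 levels of sec22a.S were 9.71, 10.57, 10.68, 10.59 and 10.63 with Pax3GR and 11.11, 11.09, 10.79, 10.91 and 11.01 with Zic1GR. They were 10.37, 10.68, 10.81, 10.86 and 10.24 with Pax3GR/Zic1GR, against 10.49, 10.30, 10.69, 10.30 and 10.48 with GR. Only the Zic1GR arrays lay above the GR range throughout, and Pax3GR 1 lay alone at the low end. sec22a.S differed from GR by -0.02 (SE 0.17, adjusted p = 0.954) with Pax3GR, 0.53 (SE 0.17, adjusted p = 0.0156) with Zic1GR and 0.14 (SE 0.17, adjusted p = 0.527) with Pax3GR/Zic1GR. The role of Sec22a in the same transport step is less well defined.

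sec24d.L measured 2.18, 3.65, 2.19, 2.20 and 2.18 in Pax3GR explants, and 3.99, 5.21, 3.71, 3.46 and 5.10 in Zic1GR explants. Explants with both factors had 3.93, 3.59, 3.26, 2.29 and 3.74 for sec24d.L, and GR explants 5.84, 4.77, 5.47, 4.44 and 5.06. This was the dimmest member, and all Pax3GR and all Pax3GR/Zic1GR values lay below log2 4 while all GR values lay above it. sec24d.L was at least 2.17-fold lower with Pax3GR and at least 2.17-fold lower with Pax3GR/Zic1GR than with GR, with values under log2 4 set to 4. The fit of the deposited values, which uses differences below that level, gave adjusted p values of 4.27e-05 and 0.00219 for sec24d.L. This gene passed the filter only through GR and Zic1GR arrays. The filter thus favoured a fall for it with Pax3GR and Pax3GR/Zic1GR, and these p values do not allow for that. The Zic1GR difference was -0.82 (SE 0.41, adjusted p = 0.101). Of the other Sec24 genes, sec24c.S fell in all 3 comparisons with GR. It differed by -0.62 (adjusted p = 0.000927) with Pax3GR, -0.58 (SE 0.14, adjusted p = 0.00186) with Zic1GR and -0.53 (adjusted p = 0.00432) with Pax3GR/Zic1GR. sec24a.S fell with Zic1GR, by -0.33 (SE 0.10, adjusted p = 0.0114), and with Pax3GR/Zic1GR, by -0.28 (adjusted p = 0.0324). With Pax3GR sec24a.S differed by -0.11 (adjusted p = 0.405).

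COPI coatomer subunits were the role with the largest median difference with Pax3GR, -0.71 over 9 members, of which 6 fell and 1 rose. With Zic1GR 3 fell and 1 rose, and with Pax3GR/Zic1GR 4 fell and 1 rose. Among all probe sets 23.0%, 22.8% and 20.3% fell and 27.3%, 28.6% and 24.6% rose in the same order. copb1.L lay at 11.51, 10.92, 10.40, 10.40 and 10.003 in Pax3GR explants and at 11.29, 11.27, 11.52, 11.54 and 11.53 in Zic1GR explants. It lay at 11.21, 11.10, 11.95, 10.98 and 11.34 in Pax3GR/Zic1GR explants, against 11.78, 11.71, 11.71, 11.64 and 11.60 in GR explants. Pax3GR 1 overlapped with the Zic1GR and Pax3GR/Zic1GR arrays and the other 4 Pax3GR arrays lay below all arrays of the other groups. copb1.L differed from GR by -1.05 (SE 0.22, adjusted p = 0.000776) with Pax3GR, -0.26 (SE 0.22, adjusted p = 0.345) with Zic1GR and -0.37 (SE 0.22, adjusted p = 0.182) with Pax3GR/Zic1GR. The homeolog copb1.S was not called, with differences of -0.46 (adjusted p = 0.127), -0.04 (adjusted p = 0.902) and -0.48 (adjusted p = 0.12) in the same order. cope.S, for the epsilon subunit, averaged 11.99 ± 0.22, 12.59 ± 0.23 and 12.30 ± 0.15 in the injected groups, against 12.74 ± 0.09 with GR, and fell with Pax3GR, with a difference of -0.75 (SE 0.12, adjusted p = 7.87e-05). It also fell with Pax3GR/Zic1GR, with a difference of -0.44 (adjusted p = 0.00834).

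In Pax3GR explants copz1.L had 12.35, 12.09, 12.01, 12.09 and 11.86, and in Zic1GR explants it had 12.22, 12.41, 12.45, 12.25 and 12.55. Pax3GR/Zic1GR explants gave 12.28, 12.06, 12.50, 12.27 and 12.51 for copz1.L, against 12.80, 12.79, 12.86, 12.73 and 12.83 in GR explants. The GR arrays lay above all 15 injected arrays for this gene of the zeta subunit, and Pax3GR 1 was the highest of its group. copz1.L differed from GR by -0.72 (SE 0.11, adjusted p = 2.57e-05) with Pax3GR, -0.43 (SE 0.11, adjusted p = 0.00313) with Zic1GR and -0.48 (SE 0.11, adjusted p = 0.00155) with Pax3GR/Zic1GR. The homeolog copz1.S was not called, with differences of -0.14 (adjusted p = 0.459), 0.03 (adjusted p = 0.881) and -0.19 (adjusted p = 0.336) in the same order. copa.L fell with Pax3GR (-0.42, adjusted p = 0.0203). It was not called with Zic1GR (-0.21, adjusted p = 0.225) or Pax3GR/Zic1GR (-0.18, adjusted p = 0.328). copg1.L, for a gamma subunit, fell in all 3 comparisons with GR. It differed by -0.71 (adjusted p = 0.000143) with Pax3GR, -0.40 (SE 0.12, adjusted p = 0.0121) with Zic1GR and -0.55 (SE 0.12, adjusted p = 0.00168) with Pax3GR/Zic1GR.

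The gene for the other gamma subunit, copg2.S, was the 1 member that rose with Pax3GR and the 1 that rose with Pax3GR/Zic1GR. For copg2.S the Pax3GR arrays gave 12.59, 12.399, 12.69, 12.63 and 12.54 and the Zic1GR arrays 12.55, 12.66, 12.60, 12.78 and 12.33. The Pax3GR/Zic1GR arrays gave 12.65, 12.64, 12.94, 12.49 and 12.57, and the GR arrays 12.399, 11.68, 12.28, 12.32 and 12.41. GR 2 lay below all other arrays, and the Pax3GR/Zic1GR arrays all lay above the GR arrays. copg2.S differed from GR by 0.35 (SE 0.13, adjusted p = 0.0375) with Pax3GR, 0.37 (SE 0.13, adjusted p = 0.0302) with Zic1GR and 0.44 (SE 0.13, adjusted p = 0.0131) with Pax3GR/Zic1GR. Without GR 2 the Pax3GR and Zic1GR calls were lost. The Pax3GR call was also lost without any 1 of Pax3GR 1, 3, 4 and 5, and the Zic1GR call without any 1 of Zic1GR 2, 3 and 4 (adjusted p 0.0547 to 0.116 and 0.0506 to 0.0903 over all of these).

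**Figure D4:**
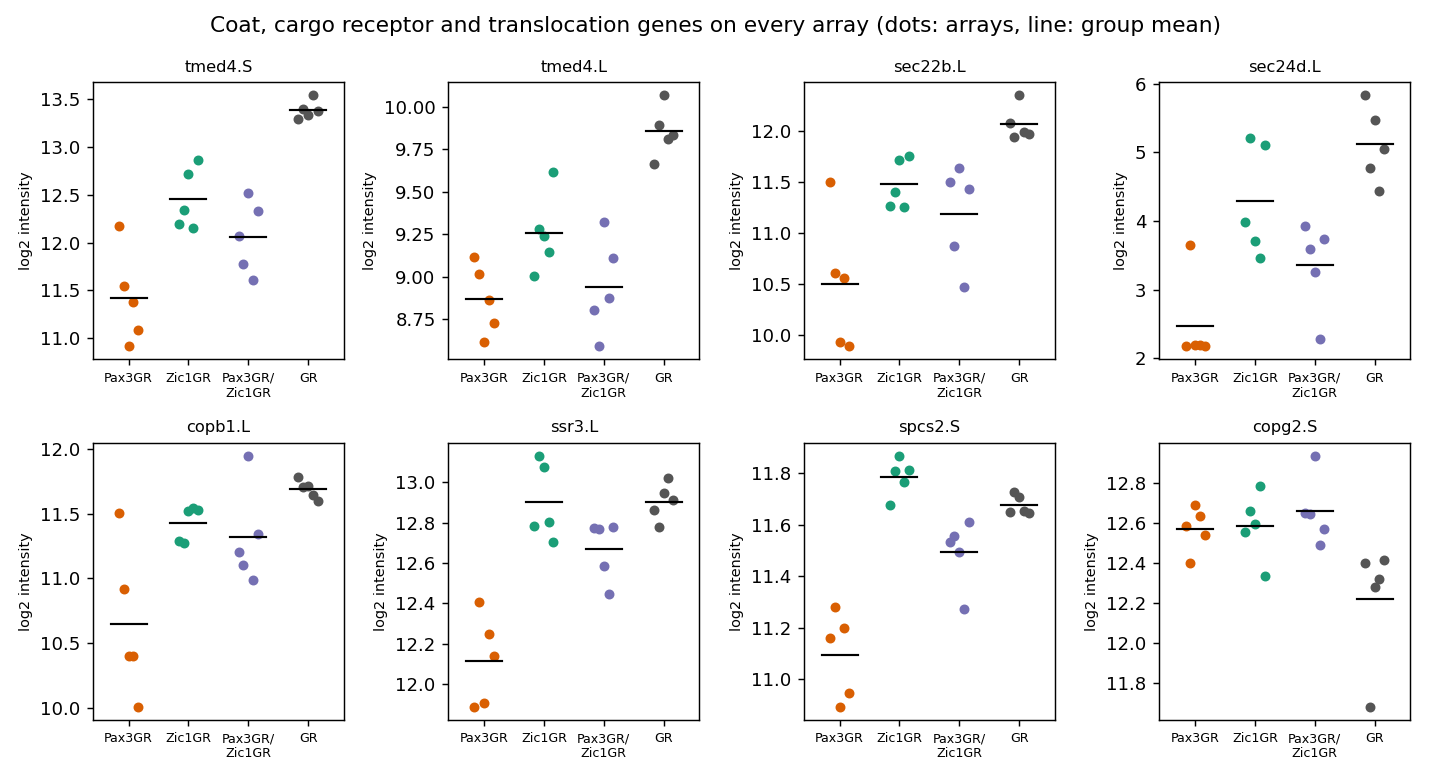
Log2 intensity of 8 coat, cargo receptor and translocation genes on every array (dots) with group means (lines), in panels with their own vertical axes. For tmed4.S, tmed4.L and sec22b.L all 15 injected arrays lie below the GR arrays, for ssr3.L the 5 Pax3GR arrays lie below all others, and for copg2.S the GR mean is the lowest.

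TMED proteins of the p24 family span the membrane of ER and Golgi vesicles and select cargo, such as proteins with lipid anchors. Of 9 members, 5 fell with Pax3GR, 3 fell and 1 rose with Zic1GR, and 6 fell with Pax3GR/Zic1GR. Among all probe sets 23.0%, 22.8% and 20.3% fell in the same order, and 28.6% rose with Zic1GR. Log2 levels of tmed4.S were 12.17, 11.54, 10.92, 11.38 and 11.08 with Pax3GR and 12.19, 12.34, 12.72, 12.15 and 12.87 with Zic1GR. They were 12.07, 11.77, 12.51, 11.61 and 12.33 with Pax3GR/Zic1GR, against 13.29, 13.39, 13.33, 13.54 and 13.37 with GR. The GR arrays stood above all 15 others, the closest of which was Zic1GR 5, and the Pax3GR arrays were the lowest with an overlap of 1 array with Zic1GR. tmed4.S differed from GR by -1.97 (SE 0.22, adjusted p = 1.08e-06) with Pax3GR, -0.93 (SE 0.22, adjusted p = 0.00198) with Zic1GR and -1.33 (SE 0.22, adjusted p = 0.000108) with Pax3GR/Zic1GR. The other probe set of tmed4.S differed by -1.79 with Pax3GR.

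tmed4.L measured 9.12, 9.02, 8.62, 8.86 and 8.73 in Pax3GR explants, and 9.00, 9.28, 9.24, 9.14 and 9.62 in Zic1GR explants. Explants with both factors had 8.80, 8.59, 9.32, 8.87 and 9.11 for tmed4.L, and GR explants 9.66, 9.89, 10.07, 9.81 and 9.84. All injected arrays lay below the GR arrays, the nearest being Zic1GR 5, and the group means stood in the order of the homeolog's. tmed4.L differed from GR by -0.99 (SE 0.15, adjusted p = 2.5e-05) with Pax3GR, -0.60 (SE 0.15, adjusted p = 0.00257) with Zic1GR and -0.92 (SE 0.15, adjusted p = 7.4e-05) with Pax3GR/Zic1GR. Of the brightest TMED genes, tmed2.L, whose product pairs with Tmed10 in these vesicles, differed by -0.18 (adjusted p = 0.128), -0.05 (adjusted p = 0.718) and -0.16 (adjusted p = 0.181) in the same order and was not called. Its other probe sets were both lower with Pax3GR, by -0.34 (adjusted p = 0.0195) and -0.31 (adjusted p = 0.0262), and the probe set used was called without Pax3GR 1 and Zic1GR 5 (-0.22, adjusted p = 0.0437).

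tmed8.S lay at 3.42, 3.89, 5.09, 4.63 and 4.29 in Pax3GR explants and at 6.01, 6.15, 4.31, 6.54 and 3.66 in Zic1GR explants. It lay at 3.92, 3.88, 3.97, 5.51 and 4.04 in Pax3GR/Zic1GR explants, against 3.52, 3.92, 3.52, 3.96 and 3.61 in GR explants. The GR values all lay below log2 4, and of the Zic1GR arrays 4 lay above that level and Zic1GR 5 below it. With values under log2 4 set to 4, tmed8.S was 2.64-fold higher with Zic1GR than with GR (adjusted p = 0.0101 in the fit of the deposited values). This fold is not a lower bound, since the value of Zic1GR 5 was also raised to 4. The differences with Pax3GR and Pax3GR/Zic1GR were 0.56 (adjusted p = 0.36) and 0.56 (adjusted p = 0.366). Like sec24d.L (7 of 20 arrays), tmed8.S passed the filter through the arrays on which it was high (9 of 20). No GR array was among the latter, so that the filter favoured a rise of tmed8.S over GR.

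The comparison of Pax3GR with Zic1GR asked whether the single factors differed from each other directly. Of the members, 27 were lower with Pax3GR and none higher, against 17.0% and 17.3% of all probe sets. The median member differed by -0.28 and the median probe set by -0.04, and in 18 members all Pax3GR arrays lay below all Zic1GR arrays, against 11.2% of all probe sets. Without Pax3GR 1 and Zic1GR 5, 26 were lower and 1 was higher. Large differences were those of hspa5.L at -1.15 (SE 0.22, adjusted p = 0.000555), tmed4.S at -1.03 (SE 0.22, adjusted p = 0.00135) and sec22b.L at -0.99 (SE 0.27, adjusted p = 0.00861). For sec24d.L all Pax3GR values lay below log2 4, and with values under 4 set to 4 it was 1.38-fold lower with Pax3GR. This fold is not a lower bound, since Zic1GR values below 4 were raised as well. The call of sec24d.L on the deposited values (0.00227) was lost with values under 4 set to 4 (-0.46, adjusted p = 0.184). By role, 8 of 10 translocon and TRAP genes, 5 of 9 TMED genes, 3 of 8 chaperones, 3 of 6 signal recognition particle genes and 3 of 9 COPI genes were lower with Pax3GR. With only the arrays of these 2 groups in the fit, 17 members were lower.

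Pax3GR/Zic1GR was then set against each factor alone. Against Pax3GR, 5 members were higher and none lower, while 4.28% of all probe sets were higher and 5.98% lower. The median member differed by 0.18 and the median probe set by 0.01. The 4 largest of these 5 were hspa5.L at 0.95 (SE 0.22, adjusted p = 0.00963), ssr3.L at 0.55 (SE 0.12, adjusted p = 0.00559), tmed10l.L at 0.47 (SE 0.11, adjusted p = 0.00848) and ssr3.S at 0.41 (SE 0.10, adjusted p = 0.0154). The remaining one, spcs2.S, differed by 0.40 (adjusted p = 0.00838). This count rested on a few arrays: 18 members were higher without Pax3GR 1, 13 without Pax3GR/Zic1GR 4, 9 without Zic1GR 5 and 9 without Pax3GR/Zic1GR 2. With Pax3GR 1 and Zic1GR 5 both left out it was 19, and with only the 2 groups in the fit it was 0.

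In Pax3GR explants tmed10l.L had 11.57, 11.51, 11.39, 11.43 and 11.42, and in Zic1GR explants it had 12.23, 12.31, 12.26, 12.06 and 12.26. Pax3GR/Zic1GR explants gave 12.09, 11.69, 12.05, 11.66 and 12.201 for tmed10l.L, against 12.13, 12.28, 12.42, 12.39 and 12.24 in GR explants. For this TMED10-like gene all Pax3GR/Zic1GR arrays lay above all Pax3GR arrays, and Pax3GR/Zic1GR 2 and 4 were the lowest of their group. For ssr3.L and ssr3.S the arrays of Pax3GR/Zic1GR and Pax3GR did not overlap either, which held for 4 members, against 3.21% of all probe sets. For hspa5.L 2 of the 5 Pax3GR/Zic1GR arrays lay within the Pax3GR range.

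Against Zic1GR, 2 members were lower with Pax3GR/Zic1GR and none higher, while 6.25% of all probe sets were lower and 7.05% higher. These were srp14.S at -0.31 (SE 0.10, adjusted p = 0.0421) and spcs2.S at -0.29 (SE 0.09, adjusted p = 0.0375). Both calls were lost with a replicate block (0.0825 and 0.0640). The srp14.S call was lost without any array other than Pax3GR 1, 2, 3 and 5, Zic1GR 4 and 5, Pax3GR/Zic1GR 3 and GR 3 (0.0510 to 0.114). The spcs2.S call was lost without any 1 of Zic1GR 2 to 5 and Pax3GR/Zic1GR 1, 3 and 4 (0.0508 to 0.103). In 4 members all Pax3GR/Zic1GR arrays lay below all Zic1GR arrays, against 5.05% of all probe sets. The median member differed by -0.12 and the median probe set by -0.02.

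Non-additivity is the effect of Pax3GR/Zic1GR minus the sum of the effects of Pax3GR and Zic1GR, each against GR. A positive value means that the combined level lay above the sum of the single changes. It was positive and called for 23 members and negative and called for none, against 17.0% and 19.6% of all probe sets. The median was 0.37 over the members and -0.12 over all probe sets. Large values were those of tmed4.S at 1.57 (SE 0.31, adjusted p = 0.00102), hspa5.L at 1.32 (SE 0.31, adjusted p = 0.0035) and sec22b.L at 1.27 (SE 0.38, adjusted p = 0.0151). For tmed4.S the single changes were -1.97 and -0.93 and the combined change -1.33, so that Pax3GR/Zic1GR lay between the single factors.

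The value of sec24d.L was 1.71 (adjusted p = 0.0287) on the deposited values, but all its Pax3GR and Pax3GR/Zic1GR values lay below log2 4. It was not called with values under 4 set to 4 (0.65, adjusted p = 0.171), nor without any 1 of Zic1GR 1, 3 and 4, Pax3GR/Zic1GR 1 and 5 or GR 1 and 3 (0.0506 to 0.0572). By role, 6 of 10 translocon and TRAP genes, 5 of 9 COPI genes, 4 of 8 chaperones, 4 of 9 TMED genes, 3 of 8 ER exit genes and 1 of 5 disulfide isomerases were called positive. Among all probe sets 17.0% were called positive, a share near that of the disulfide isomerases. None of the 6 signal recognition particle and 3 signal peptidase genes was called by limma, with medians of 0.15 and 0.09. Without Pax3GR 1 and Zic1GR 5, 30 members were positive and 3 negative.

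Both homeologs passed the filter for 13 genes. With Pax3GR both copies were called in the same direction in 6 pairs, 1 copy was called in 6 pairs and neither in 1 pair. With Zic1GR these counts were 1, 4 and 7, and 1 pair (ssr4) was called in opposite directions on the probe sets used. Another probe set of ssr4.S was called lower with Zic1GR, as ssr4.L was. With Pax3GR/Zic1GR they were 2, 6 and 5. Copies of near-identical sequence may share probes, and the array's probe sets do not always tell them apart.

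The rule takes the brightest probe set of a gene, and 17 members had further probe sets above the filter, 27 in all. Of these 27, 20 had a lower difference with Pax3GR than the brighter probe set used, whether called or not, and in 11 genes all further probe sets did. Among these genes is ssr4.S, whose probe set used differed by 0.26 and its 2 others by -1.55 and -1.35. For copb2.S, a COPI subunit, the probe set used differed by -0.71 and its 5 others by -0.75 to -2.21. For calr.S the values were -0.55 and -1.05, and for copa.L -0.42 and -1.004. In the other direction, the other probe set of tmed5.L differed by 0.52 where the one used differed by -0.87, both called, and that of ssr2.S by 0.02. These genes were chosen after their values were seen.

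Further genes of the pathway, in 8 lists of partners that the symbol rule does not take, were tested in the same fit. Their shares are set against those of all probe sets, of which 23.0%, 22.8% and 20.3% fell and 27.3%, 28.6% and 24.6% rose with Pax3GR, Zic1GR and Pax3GR/Zic1GR. Of 17 catalytic subunits of signal peptidase and subunits of oligosaccharyltransferase, the enzyme that adds glycans to new chains, 11 fell with Pax3GR, 8 with Zic1GR and 9 with Pax3GR/Zic1GR (64.7%, 47.1% and 52.9%), with medians of -0.43, -0.32 and -0.30. ostc.S, an oligosaccharyltransferase subunit, averaged 8.92 ± 0.31, 9.82 ± 0.44 and 9.46 ± 0.61 in the injected groups, against 10.44 ± 0.40 with GR, and fell with Pax3GR, with a difference of -1.51 (SE 0.28, adjusted p = 0.000221). krtcap2.L, for another subunit of that enzyme, fell in all 3 comparisons, with differences of -1.33 (adjusted p = 2.45e-05), -0.93 (adjusted p = 0.000803) and -0.67 (adjusted p = 0.00948). The 1 that rose in each comparison, sec11a.S, a catalytic subunit of signal peptidase, differed by 0.26 (adjusted p = 0.0495), 0.28 (adjusted p = 0.0305) and 0.30 (adjusted p = 0.0238). The Pax3GR call of sec11a.S was lost without any array other than Pax3GR 1 and GR 4 (0.0516 to 0.133) and with a replicate block (0.0520). With Zic1GR it was lost without any 1 of Zic1GR 1, 2 and 4 and GR 1, 2 and 3 (up to 0.0725), and with Pax3GR/Zic1GR without any 1 of Pax3GR/Zic1GR 4 and GR 1 and 3 (up to 0.0594).

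Of 40 genes of the lectin cycle and ER folding, 21 fell and 4 rose with Pax3GR, 9 fell and 4 rose with Zic1GR, and 10 fell and 4 rose with Pax3GR/Zic1GR, with medians of -0.33, -0.06 and -0.16. The shares that fell were 52.5%, 22.5% and 25%, the last 2 of them near those of all probe sets. dnajc3.L, for a J-domain partner of BiP, averaged 9.12 ± 0.58, 10.56 ± 0.37 and 10.18 ± 0.66 in the injected groups, against 11.76 ± 0.18 with GR, and fell, with differences of -2.64 (adjusted p = 1.23e-06), -1.20 (adjusted p = 0.00298) and -1.58 (adjusted p = 0.000372). hyou1.S, for the ER chaperone that exchanges nucleotide on BiP, averaged 5.83 ± 0.64, 7.63 ± 0.21 and 6.93 ± 0.72, against 8.12 ± 0.21 with GR, and fell with Pax3GR, with a difference of -2.29 (SE 0.31, adjusted p = 9.74e-06) and with Pax3GR/Zic1GR, with one of -1.19 (SE 0.31, adjusted p = 0.00477). In the other direction cnpy2.L, an ER protein of the canopy family, averaged 10.55 ± 0.42, 9.84 ± 0.44 and 10.42 ± 0.35, against 7.65 ± 0.20 with GR, and rose, with differences of 2.90 (adjusted p = 1.26e-08), 2.19 (adjusted p = 7.43e-07) and 2.77 (adjusted p = 2.94e-08).

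Of 20 genes of ER stress signalling and ER-associated degradation, 12 fell and 1 rose with Pax3GR, 9 fell and 3 rose with Zic1GR, and 8 fell and 2 rose with Pax3GR/Zic1GR, with medians of -0.67, -0.54 and -0.39 and shares of 60%, 45% and 40% that fell. Xbp1 is the transcription factor of the IRE1 branch of the stress response and of secretory cells. xbp1.L averaged 13.31 ± 0.14, 13.93 ± 0.18 and 13.72 ± 0.27 in the injected groups, against 14.09 ± 0.05 with GR. It fell with Pax3GR, with a difference of -0.78 (SE 0.12, adjusted p = 4.64e-05) and with Pax3GR/Zic1GR, with one of -0.38 (SE 0.12, adjusted p = 0.0183), and the Pax3GR/Zic1GR call was lost without Pax3GR/Zic1GR 4 (adjusted p = 0.0588). Arrays of this kind do not tell the spliced from the unspliced form of xbp1.

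creb3l2.L, for a membrane-bound transcription factor that acts on COPII genes in other vertebrates, averaged 10.83 ± 0.87, 12.57 ± 0.37 and 11.64 ± 0.58, against 13.12 ± 0.08 with GR. It fell with Pax3GR, with a difference of -2.30 (SE 0.34, adjusted p = 2.65e-05) and with Pax3GR/Zic1GR, with one of -1.48 (SE 0.34, adjusted p = 0.00191). atf6.S, for the membrane-bound sensor cut in the Golgi, fell, with differences of -2.06 (adjusted p = 0.000331), -1.52 (adjusted p = 0.00423) and -1.12 (adjusted p = 0.0286), the last of them not called without any 1 of Pax3GR/Zic1GR 1 and 2 and GR 2 and 3 (up to 0.0858). The J-domain gene dnajb9.L rose instead, with differences of 0.77 (adjusted p = 0.00677), 0.98 (adjusted p = 0.00129) and 0.63 (adjusted p = 0.0247), the last of them not called without any 1 of Pax3GR/Zic1GR 1 and 3 and GR 4 and 5 (up to 0.0722). ddit3.L, the gene of the factor CHOP of stressed cells, lay below log2 4 on all arrays of the Zic1GR, Pax3GR/Zic1GR and GR groups. It reached log2 4 on at least 1 Pax3GR array.

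Partners of the COPII coat fell in 6, 5 and 2 of 10 genes with Pax3GR, Zic1GR and Pax3GR/Zic1GR (60%, 50% and 20%), and 1 rose in each. preb.L, whose product loads the coat GTPase Sar1, fell, with differences of -1.20 (adjusted p = 0.000912), -1.24 (adjusted p = 0.000769) and -0.90 (adjusted p = 0.00933). The gene that rose was mia2.L, for a protein of ER exit sites that aids export of bulky cargo, which averaged 13.24 ± 0.21, 12.16 ± 0.20 and 12.68 ± 0.23, against 11.74 ± 0.29 with GR. It differed by 1.501 (adjusted p = 4.04e-07), 0.42 (adjusted p = 0.0296) and 0.94 (adjusted p = 0.000101), and the Zic1GR call was lost without any 1 of Zic1GR 1 and GR 1, 2 and 5 (up to 0.0838). Partners of COPI and of the Arf cycle fell in 8, 2 and 7 of 10 genes (80%, 20% and 70%) and none rose, with medians of -0.40, -0.14 and -0.28. Among them arfgap3.L, for a GTPase-activating protein of the coat, fell with Pax3GR, with a difference of -0.75 (SE 0.18, adjusted p = 0.0019).

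Among 39 cargo receptors and SNAREs of ER and Golgi, 19, 13 and 14 fell (48.7%, 33.3% and 35.9%) and 1, 2 and 4 rose, with medians of -0.38, -0.22 and -0.36. trappc1.S, for a subunit of the tethering complex TRAPP, fell, with differences of -1.78 (adjusted p = 9.45e-06), -1.004 (adjusted p = 0.00226) and -1.55 (adjusted p = 5.62e-05), while stx18.L, for an ER SNARE, rose with Pax3GR/Zic1GR, with a difference of 2.08 (SE 0.48, adjusted p = 0.00189). Of 13 Golgi structure genes, 7, 7 and 6 fell (53.8%, 53.8% and 46.2%) and 0, 1 and 0 rose, with medians of -0.58, -1.12 and -0.30. cog6.L, for a subunit of a Golgi tethering complex, fell, with differences of -2.35 (adjusted p = 3.04e-05), -1.23 (adjusted p = 0.00805) and -1.25 (adjusted p = 0.00823), and golga1.L, for a golgin, with differences of -1.96 (adjusted p = 4.24e-06), -1.74 (adjusted p = 2.14e-05) and -1.71 (adjusted p = 2.6e-05).

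The receptor of the signal recognition particle and the post-translational route of entry formed the list with the fewest calls. Of 14 genes, 1 fell with Pax3GR, 2 fell and 2 rose with Zic1GR, and 1 rose with Pax3GR/Zic1GR, so that 7.1%, 14.3% and 0% fell, with medians of -0.11, -0.11 and 0.01. sec62.L, for a channel partner in post-translational entry, averaged 7.68 ± 0.26, 8.83 ± 0.35 and 8.05 ± 0.29, against 7.34 ± 0.32 with GR, and rose with Zic1GR, with a difference of 1.49 (SE 0.19, adjusted p = 9.22e-06) and with Pax3GR/Zic1GR, with one of 0.71 (SE 0.19, adjusted p = 0.0067). srprb.L, for the membrane subunit of the receptor, rose with Zic1GR, with a difference of 0.68 (SE 0.19, adjusted p = 0.00646) and differed by -0.39 (adjusted p = 0.0925) with Pax3GR. The Zic1GR falls were those of get1.L and get4.S, which serve the insertion of tail-anchored proteins, with differences of -0.53 (adjusted p = 0.00749) and -0.76 (adjusted p = 0.00592).

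**Figure D5:**
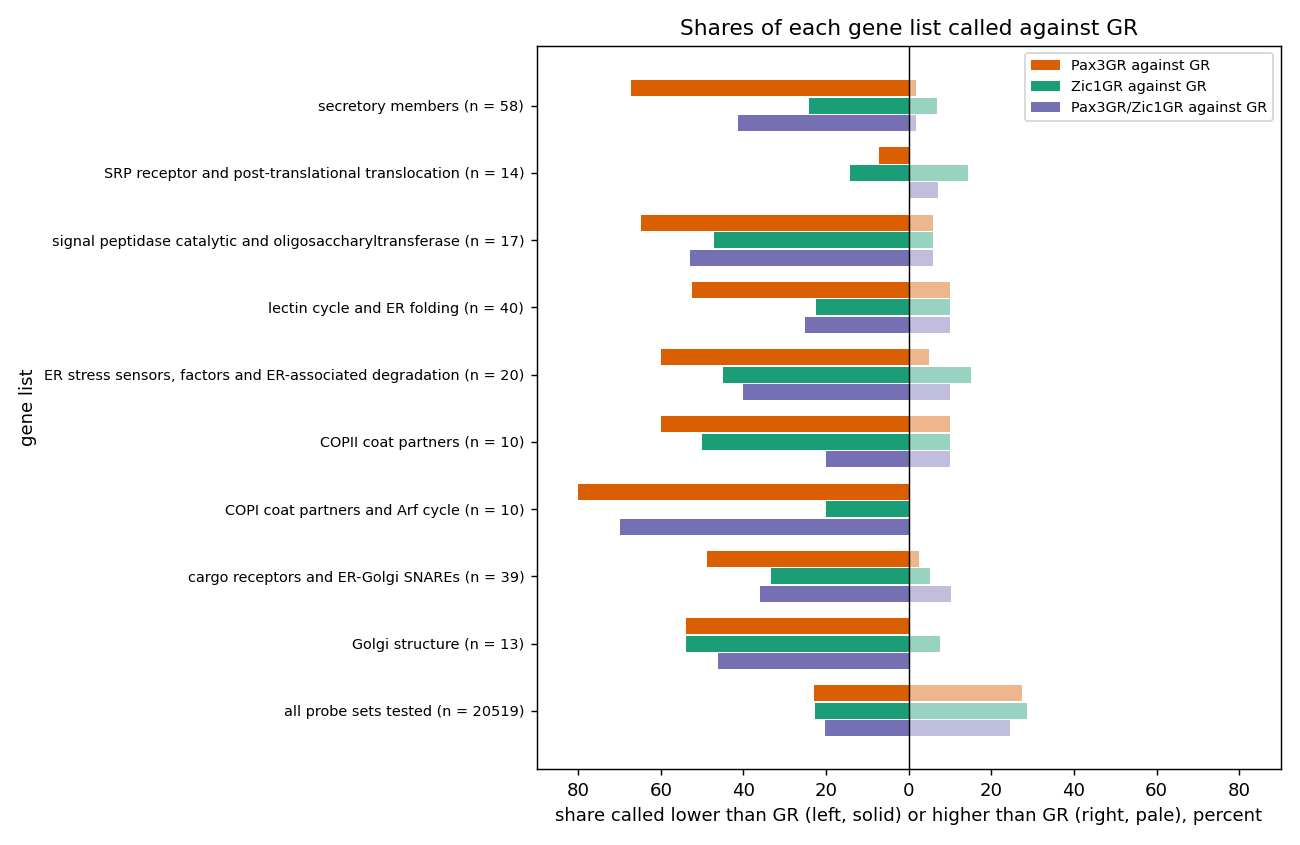
Share of each gene list called lower than GR (left of 0, solid) and higher than GR (right of 0, pale), in percent, with Pax3GR, Zic1GR and Pax3GR/Zic1GR. The upper row holds the 58 members and the bottom row all 20519 probe sets tested, of which 23.0% were lower and 27.3% higher with Pax3GR.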

How the data were processed

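Total RNA of each explant, 100 ng, was amplified and hybridised to an Affymetrix Xenopus laevis array, 1 array per explant, per the labels' protocols. Values were deposited as log2 intensities per probe set. GCRMA and Partek are named in the submitters' processing notes, without a version or a role, and what else the authors did is not given in the sources used here. All values were used as deposited. Of 32635 probe sets, 96 controls were left out, and 20519 with log2 4 or more on at least 5 of 20 arrays were tested. Symbols came from the array's annotation table: 15495 probe sets had 1 symbol, 279 had several and were not used for members, and 16765 had none. One mean per group was fitted over all 20 arrays with limma 3.58.1 in R 4.3.3 (lmFit, eBayes), for 7 comparisons, with Benjamini-Hochberg adjustment over all probe sets tested. The code was tested on simulated data.

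The members, the gene lists and the tests were chosen with earlier results of these data known. Named in every case were all chaperones. In each role and comparison with GR the rule took up to 2 called members with the largest rise, up to 2 with the largest fall and the member not called with the highest mean. In each other comparison it took the 4 largest rises and 4 largest falls, and from each pathway list up to 2 of each and the called stress sensors and factors. Where a group had no array at log2 4 or above, the fold was taken with lower values set to 4. It is a lower bound only if every array of the other group lay at log2 4 or above. With 5 arrays a group, precision is limited by their number. Alternatives covered filters, low values, scaling, the choice of probe set, the variance model, the arrays fitted, replicate number as a block, and each array left out. Sequences and coordinates were not used here.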

Additional observations from a re-analysis of the deposited data

Results flagged for a closer look

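Over the 46 members named, 184 groups of 5 arrays were searched for an array far from the other 4 of its group, with a critical ratio of 0.71 (gap over range), and 18 were found. Chance flags about 1 in 20 such groups. Zic1GR 5 accounted for 6 of the 18. It was high for hsp90b1.L (14.05), pdia4.L (13.77), sec23ip.L (12.69) and tmed2.L (14.35), and low for ssr3.S (13.35) and ssr4.S (11.50). Pax3GR 1 stood apart for sec22a.S (9.71) and tmed2.L (14.15), Pax3GR 2 for sec24d.L (3.65) and Pax3GR 4 for ssr2.S (13.99). Pax3GR/Zic1GR 4 stood apart for tmed8.S (5.51). Among the GR arrays, GR 1 was high for pdia4.L (13.69) and ssr1.L (13.88), GR 2 was low for copg2.S (11.68), GR 3 was high for ssr4.S (12.09) and sec23ip.L (12.63), and GR 5 was low for pdia6.L (12.73) and ssr1.S (12.81).

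For 23 members the effect of both factors together differed from the sum of their single effects by a test of that difference (limma, non-additivity). Of the 58 members these 23 were called positive and none negative, against 17.0% and 19.6% of all probe sets tested. Among the largest called values were 1.57 (adjusted p = 0.00102) for tmed4.S, 1.32 (adjusted p = 0.0035) for hspa5.L and 1.27 (adjusted p = 0.0151) for sec22b.L. The gene sec24d.L had 1.71 (adjusted p = 0.0287) on the deposited values, but all its Pax3GR and Pax3GR/Zic1GR values lay below log2 4, and it was not called with values under 4 set to 4 (0.65, adjusted p = 0.171) or without any 1 of Zic1GR 1, 3 and 4, Pax3GR/Zic1GR 1 and 5 and GR 1 and 3. All 4 were picked as the members with the largest called values on the deposited scale, of 58 tested.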

How the results depend on the processing

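Members that fell with Pax3GR, with Zic1GR and with Pax3GR/Zic1GR against GR numbered within 1.5 times 39, 14 and 24 under every alternative run except the demand for a change of 1 on the log2 scale, which left 6, 1 and 2 lower and 0, 1 and 0 higher, and 3 lower in Pax3GR against Zic1GR, 4 positive for non-additivity, and 0 against each single factor. Against Pax3GR, 5 members were higher with Pax3GR/Zic1GR. That count was 9 without a filter, 8 with a filter at log2 6, 11 with arrays centred on their medians, 13 with trend and robust settings, 0 with only the groups compared, 21 without the least typical array of each group (4 arrays together), and 19 without Pax3GR 1 and Zic1GR 5, an alternative added after the data were seen. Against Zic1GR, the 2 lower members became 0 after quantile normalization, 0 with only the groups compared, 0 with a replicate block and 4 without those 2 arrays. There 1 member was higher without the 4 arrays and 1 without the 2. In Pax3GR against Zic1GR, 17 members were lower with only the groups compared, and 1 was higher with trend and robust settings, 1 without the 4 arrays and 1 without the 2. The 1 member higher with Pax3GR than with GR was not called with only the groups compared (0) or without the 4 arrays (0). Negative non-additivity was called for 3 members without the 4 arrays and 3 without the 2. Leaving out 1 array at a time gave 34 to 41 lower and 0 to 1 higher with Pax3GR, 10 to 18 and 2 to 4 with Zic1GR, and 17 to 28 and 1 to 1 with Pax3GR/Zic1GR. It gave 5 to 18 higher and 0 to 0 lower against Pax3GR, 0 to 3 lower and 0 to 1 higher against Zic1GR, 20 to 28 lower and 0 to 1 higher for Pax3GR against Zic1GR, and 18 to 31 positive and 0 to 2 negative for non-additivity. The Zic1GR difference of ssr4.S was -0.61 with its probe set of highest SD. Replicate number as a block gave 36, 12 and 22 members lower and 1, 4 and 1 higher against GR, 5 higher against Pax3GR, 23 lower for Pax3GR against Zic1GR and 22 positive for non-additivity. Arrays of one number did not deviate together in every pair of groups, with a lowest correlation between -0.38 and -0.0015 per number. The highest correlation per number lay between 0.14 and 0.47, and 6 of 20 arrays correlated best with their own number. Among the single-gene differences of named genes, calls lost numbered 17 with only the groups compared, 9 without the 4 arrays, 8 with the block, 6 after median centring, 6 after quantile normalization, 4 without a filter and 2 with values under log2 4 set to 4, and calls gained numbered 6, 9, 1, 0, 0, 2 and 0 in the same order. Without the 2 arrays 10 were gained and none was lost. The cause of these changes was not tested. Differences of members near the threshold, many of them under 0.4, are at the limit of what 5 arrays per group resolve.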
